A study of Mus musculus with 36 samples.

Results

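The genes described here encode the core of transforming growth factor beta (TGF-beta) signalling and were chosen by name: the ligand Tgfb1, the receptors Tgfbr1 and Tgfbr2, the signal-carrying Smad2, Smad3 and Smad4, the inhibitory Smad7 and the induced genes Pmepa1 and Ctgf. All 9 were found among the 11337 genes of a table of RNA sequencing values. The table holds 36 libraries of muscle stem cells (MuSCs, also called satellite cells, which repair muscle fibres). Each library came from 1 male mouse, of a strain written C56BL/6 in the sample labels and C57BL6 in the design text. In the first cohort mice had a wheel for 3 weeks that was free to turn or locked. It held 5 old mice with a free wheel, 7 old mice with a locked wheel, 3 young mice with a free wheel and 6 young mice with a locked wheel, where old is 18 months and young is 3 months. Their MuSCs were sorted as live VCAM+ cells that lacked CD31, CD45 and Sca1. In the second cohort every mouse, controls included, carried Pax7_CreERT2 and R26R_YFP and received tamoxifen, and live YFP+ cells were sorted 6 weeks later. It held 5 young Ccnd1_flox/flox mice (KO), 4 young Ccnd1_+/flox mice (HET), 3 old Ccnd1_+/+ mice (old WT) and 3 young Ccnd1_+/+ mice (young WT). Since the Pax7 gene drives the tamoxifen-dependent Cre, Ccnd1 is deleted only in cells that express Pax7, and YFP marks cells in which Cre acted. The labels name no transgene for the wheel cohort.

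TGF-beta is secreted in a latent form, and the released ligand binds the type II receptor Tgfbr2, which phosphorylates the type I receptor Tgfbr1. Tgfbr1 phosphorylates Smad2 and Smad3, which enter the nucleus with Smad4 and switch genes on or off. Smad7 and Pmepa1 are induced by the signal and restrain it, and Ctgf, a matricellular protein also induced by YAP and TEAD, is a common readout. In muscle, TGF-beta is known for holding back satellite cell proliferation and differentiation and for driving fibrosis.

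RefSeq promoter windows of 300 bases (250 before and 50 after a transcript start, GRCm38.p6) matched 4 of the 9 genes by symbol, namely Tgfb1, Tgfbr1, Tgfbr2 and Smad3. The 250 bases before the start are shown for the ligand, for Smad3, and for Tgfbr2, whose only listed window holds a Smad box. The windows lie at chr7:25686752-25687001 on the plus strand (Tgfb1), chr9:63757995-63758244 on the minus strand (Smad3) and chr9:116175364-116175613 on the minus strand (Tgfbr2). Capitals mark the Smad box CAGAC or its reverse complement.
Tgfb1: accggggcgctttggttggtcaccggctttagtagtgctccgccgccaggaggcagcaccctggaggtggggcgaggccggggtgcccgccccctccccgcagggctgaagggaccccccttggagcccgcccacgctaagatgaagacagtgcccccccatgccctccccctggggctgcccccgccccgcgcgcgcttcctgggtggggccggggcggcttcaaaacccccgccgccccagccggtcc
Smad3: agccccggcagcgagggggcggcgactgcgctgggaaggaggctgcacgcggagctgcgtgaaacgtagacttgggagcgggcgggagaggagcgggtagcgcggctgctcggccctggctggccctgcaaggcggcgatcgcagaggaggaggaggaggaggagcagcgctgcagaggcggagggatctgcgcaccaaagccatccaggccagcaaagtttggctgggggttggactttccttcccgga
Tgfbr2: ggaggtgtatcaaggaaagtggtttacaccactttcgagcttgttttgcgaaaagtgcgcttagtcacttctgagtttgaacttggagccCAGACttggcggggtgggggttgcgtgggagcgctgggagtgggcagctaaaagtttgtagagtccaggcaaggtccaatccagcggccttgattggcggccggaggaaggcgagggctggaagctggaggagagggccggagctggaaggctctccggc
The shares of G and C were 75.2% for Tgfb1, 69.2% for Smad3 and 58.4% for Tgfbr2. Over both strands of the 300 bases, the Tgfb1 and Smad3 windows held no CAGAC, no GTCTAGAC (the palindromic Smad element), no GGAATG (a TEAD site) and no TGANTCA (an AP-1 site). The Tgfbr2 window and the second of the Tgfbr1 windows each held CAGAC at 1 position, and CAGAC was present in 49.6% of all 32851 promoter windows. GTCTAGAC was present in 0.213%, GGAATG in 14.7% and TGANTCA in 7.81% of those windows. A match is a description of letters only.

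Values are the authors' RPKM (reads scaled to gene length and to the reads of the library). Ccnd1, the deleted gene, lay at 2.07 to 3.4 RPKM in KO and 6.37 to 8.13 in HET libraries, against 10.6 to 13.3 in young WT libraries. Satellite cell markers (11 of 11 found) summed to 2831.6 to 4645.6 RPKM over the 36 libraries. Sdc4 (mean 1749.7) and Myod1 (741.6) led this sum, while Pax7 averaged 20.4, Myf5 191.3 and Vcam1 177.1. Markers of other cells summed to less, though some, such as Ly6a (mean 68.1), Dpt (131.8) and Acta2 (201), averaged more than Pax7. The 8 fibroblast markers summed to 261.1 to 615.7 RPKM and the 6 endothelial markers to 62.1 to 161.3. The 6 pericyte and smooth muscle markers summed to 155.6 to 452 RPKM, and the 5 tenocyte markers to 26.5 to 243.2. Myofibre markers, 5 of 6 found, summed to 34.9 to 613.7 RPKM. Of 8 haematopoietic markers 5 were found and summed to 54.1 to 237.8 RPKM, led by Cd74 and Lyz2, while Ptprc (which encodes CD45), Adgre1 and Itgam were not analysed here. On the log2 scale the values varied in 29 of the 35 directions that 36 libraries allow, so 6 had been taken out by an adjustment of unknown kind. The standard errors and p-values below take the values as deposited and make no allowance for it. The controls of the cohorts had been drawn together. Between young WT and young locked-wheel libraries 0 of 11337 genes had an unadjusted limma p under 0.05, where 567 would be expected by the level of the test, and likewise between old WT and old locked-wheel libraries (limma, 0 genes). An effect present in old locked-wheel libraries alone would keep 72.8% of its size in these values, and an effect in old WT libraries alone 35.9%. The age comparisons of the cohorts are therefore not independent, whereas an effect in free-wheel, KO or HET libraries alone would keep 100% of its size. Even so, the directions taken out held 38.3% of the contrast of KO with WT and 35.1% of that of HET with WT. They held 12% of the wheel contrast in old mice, 10.2% of that in young mice and 0% of KO against HET.

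The 9 genes spanned a wide range of levels. Ctgf (mm10 chromosome 10, 24595442 to 24598683, plus strand) had the highest mean over the 36 libraries, at 361 RPKM, and ranked 127 of 11337 genes. Pmepa1 (mm10 chromosome 2, 173224458 to 173276533, minus strand) averaged 163 RPKM and ranked 295. The Smads and receptors lay much lower. Smad4 averaged 29.3, Tgfbr1 19.7, Smad3 17.5, Tgfbr2 14.8, Smad2 10.2 and Smad7 9.89 RPKM, and the ligand Tgfb1 (mm10 chromosome 7, 25687002 to 25705077, plus strand) was lowest at 4.45 RPKM. The genes also differed in how far they ranged. The highest library exceeded the lowest 6.01-fold for Ctgf, 4.01-fold for Tgfb1, 3.3-fold for Pmepa1, 2.57-fold for Smad7 and 2.2-fold for Smad3. For Tgfbr1, Smad2, Tgfbr2 and Smad4 the ratio was only 1.82, 1.73, 1.51 and 1.46. An exon of Ctgf overlaps the antisense transcript Gm15270 in GENCODE M21, so its reads and those of that transcript cannot be told apart without strand. No exon of the other 8 genes overlaps another gene there.

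**Figure D1:**
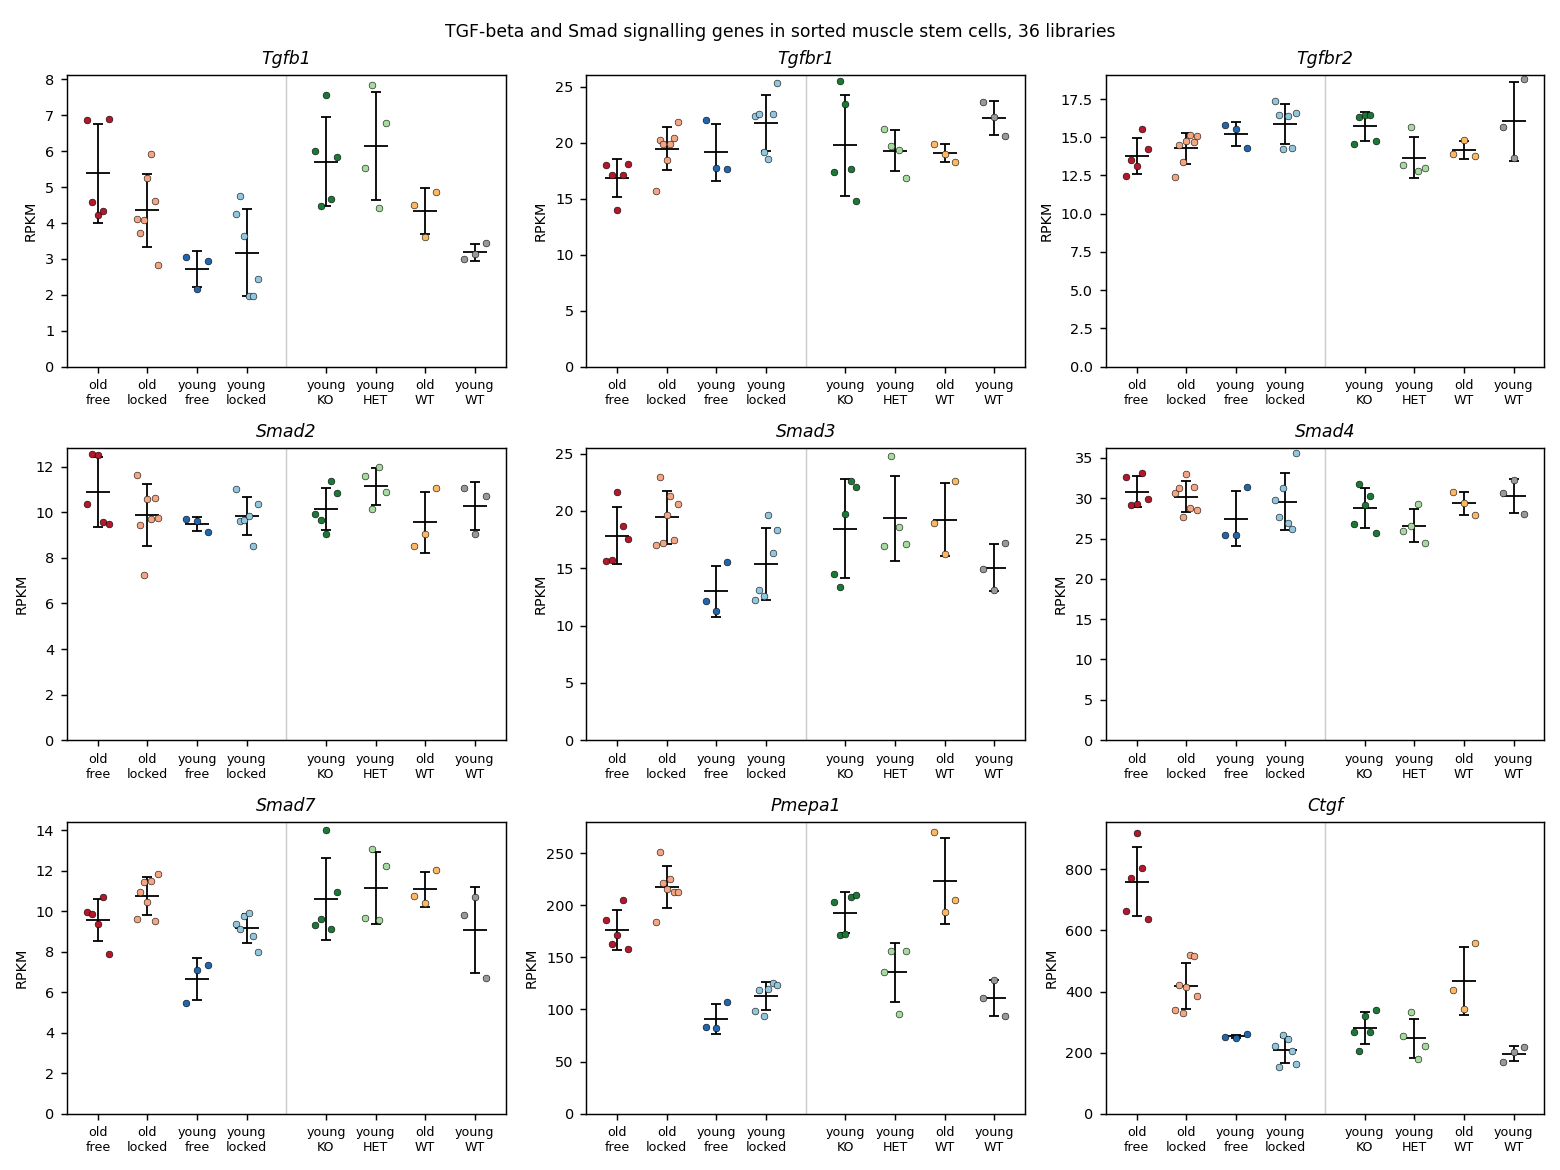
Level in RPKM (vertical axes, from 0) of each of the 9 genes in every library (points), with the mean and SD of each group (black bars), for the wheel cohort left of the grey line and the Ccnd1 cohort right of it. Pmepa1 and Ctgf separate old from young libraries in the wheel cohort and old WT from young WT libraries. The age differences of the cohorts are not independent, since their controls had been drawn together. Ctgf is highest with a free wheel in old mice, and Smad2, Smad4 and the receptors stay within narrow ranges.

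The age comparison of the wheel cohort set old against young mice with a locked wheel, which asks how MuSCs differ with age without a free wheel. Both induced genes were about doubled in old MuSCs, Smad3 and Smad7 were modestly higher, and no member was called lower. Pmepa1 ran from 183.8 to 250.8 RPKM in old libraries (median 215, n = 7), against 93.8 to 125.2 in young libraries (median 118.8, n = 6). The groups did not overlap, and Pmepa1 was 1.93-fold higher in old MuSCs, a log2 difference of 0.95 ± 0.09 (SE, adjusted p = 1.14e-07), rank 27 of all genes by p. Ctgf ran from 330.5 to 519.2 RPKM in old libraries (median 413.4), against 152.6 to 257.5 in young libraries (median 213.8). Here too every old library lay above every young one, with a 2.03-fold difference (log2 1.02 ± 0.13, adjusted p = 3.82e-06). In sorted bulk RNA, a change in the share of a cell type and a change in RNA per cell cannot be told apart.

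Among the signal carriers, Smad3 (mm10 chromosome 9, 63646767 to 63757994) ran from 17 to 22.9 RPKM in old libraries (median 19.7), against 12.3 to 19.6 in young libraries (median 14.7). The ranges overlapped, with 4 of 7 old libraries above all young ones, and Smad3 rose 1.28-fold (log2 0.36 ± 0.12, adjusted p = 0.0211). The call was lost when young locked 1, 2 or 3 was left out, at adjusted p values up to 0.0594. The inhibitory Smad7 ran from 9.51 to 11.9 RPKM in old libraries (median 10.9), against 7.97 to 9.9 in young libraries (median 9.25). It rose 1.18-fold (log2 0.23 ± 0.09, adjusted p = 0.0371), a call lost in 7 of 13 omissions of a library (old locked 2, 3, 5 and 7 and young locked 2, 5 and 6, adjusted p up to 0.0924). The ligand Tgfb1 ran from 2.83 to 5.92 RPKM in old libraries (median 4.11), against 1.95 to 4.75 in young libraries (median 3.04). Its log2 difference of 0.52 ± 0.21 did not pass (adjusted p = 0.061), though it did without old locked 7, young locked 1 or young locked 2 (adjusted p down to 0.02). Young locked libraries fell apart for this gene, since libraries 4, 5 and 6 lay at 1.95 to 2.44 RPKM and libraries 1, 2 and 3 at 3.63 to 4.75. For Smad3 the same libraries stood the other way round. It lay at 16.3 to 19.6 RPKM in libraries 4, 5 and 6 and at 12.3 to 13.1 in libraries 1, 2 and 3. Pmepa1 also lay higher in libraries 4, 5 and 6 (119.3 to 125.2 RPKM) than in libraries 1, 2 and 3 (93.8 to 118.2). In the remaining members these sets of libraries overlapped. This split was picked after the values were seen, and its share over all genes was not determined. The log2 differences of Smad2 (0.00 ± 0.10), Smad4 (0.04 ± 0.07), Tgfbr1 (-0.16 ± 0.09) and Tgfbr2 (-0.15 ± 0.07) did not pass. Tgfbr2 passed without young locked 3 or 5, at a log2 difference of -0.18 (adjusted p = 0.0496 and 0.0473).

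In this comparison limma called 20.5% of all genes higher and 38.3% in either direction, and 4 of the 9 members were called higher. The median log2 difference was 0.23 over the members and 0.01 over all genes. The 6 endothelial markers summed to 72.3 to 125.7 RPKM in old and 62.1 to 96.8 in young libraries. The 5 tenocyte markers summed to 56.9 to 243.2 RPKM (median 125.7) in old and 41.7 to 132.1 (median 64.1) in young libraries. The 5 myofibre markers in the table summed to 37.7 to 144.9 RPKM (median 99.8) in old and 109.4 to 613.7 (median 182.5) in young libraries. The part of such cells in these differences was not tested.

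Old WT against young WT mice of the Ccnd1 cohort called Pmepa1 and Ctgf higher and no other member. Pmepa1 was at 270.4, 193.8 and 204.8 RPKM in old WT libraries 1 to 3, against 111, 128.3 and 93.8 in young WT libraries. It was 2-fold higher in old WT (log2 1.00 ± 0.19, adjusted p = 0.00373). Ctgf was at 404.8, 341.7 and 559 RPKM in old WT libraries, against 168.7, 202.9 and 217.9 in young WT libraries, and was 2.18-fold higher (log2 1.12 ± 0.23, adjusted p = 0.00639). In neither gene did the groups overlap, and both calls held when any of the 6 libraries was left out. Tgfb1 was at 4.49, 3.62 and 4.87 RPKM in old WT libraries, against 2.99, 3.13 and 3.44 in young WT libraries, without overlap, but its log2 difference of 0.44 ± 0.21 did not pass (adjusted p = 0.173). Smad3 (0.35 ± 0.21) and Smad7 (0.31 ± 0.19) had positive log2 differences that did not pass. Tgfbr1 was at 18.3 to 19.8 RPKM in old WT libraries, against 20.6 to 23.6 in young WT libraries, without overlap, and did not pass either (log2 -0.22 ± 0.16). Limma called 8.03% of all genes higher here and 7.76% lower (15.8% in either direction), and called 2 of the 9 members. The adjustment ties these values to those of the wheel cohort. The endothelial markers summed to 95 to 98.2 RPKM in old WT and 62.3 to 87 in young WT libraries, and the pericyte and smooth muscle markers to 159.5 to 191 in old WT and 215.9 to 361.5 in young WT libraries, neither with overlap. Their part in these differences was not tested.

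Old mice with a free wheel were then set against old mice with a locked wheel, to ask how MuSCs differ after voluntary running. Ctgf rose and Pmepa1 fell, so that the 2 induced genes moved in opposite directions, while the ligand, receptors and Smads passed no test. Ctgf was at 663.5, 772.9, 918, 803.9 and 638.6 RPKM in old free-wheel libraries 1 to 5, against 330.5 to 519.2 in the 7 old locked-wheel libraries (median 413.4). Every free-wheel library lay above every locked-wheel one. Ctgf was 1.83-fold higher (log2 0.87 ± 0.13, SE, adjusted p = 0.00154), rank 13 of all genes by p, and the call held in each of the 12 omissions of a library. Pmepa1 was at 185.8, 162.7, 171, 205 and 157.6 RPKM in old free-wheel libraries, against 183.8 to 250.8 in old locked-wheel libraries (median 215). Of the 5 free-wheel libraries 3 lay below all locked-wheel ones and none lay above the locked-wheel mean. Pmepa1 was 1.23-fold lower (log2 -0.30 ± 0.09, adjusted p = 0.0488), close to the threshold, and the call held only when old locked 1 or old free 4 was the library left out (adjusted p up to 0.116 in the other 10 omissions). It was also lost with plain eBayes (adjusted p = 0.0672). Even so, free-wheel old libraries stayed above all young locked-wheel libraries, which reached 125.2 RPKM.

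The ligand Tgfb1 was at 6.87, 4.58, 4.22, 4.32 and 6.91 RPKM in old free-wheel libraries, against 2.83 to 5.92 in old locked-wheel libraries (median 4.11), and its log2 difference of 0.30 ± 0.23 did not pass. Libraries 1 and 5 alone lay above the locked-wheel range. Smad7 was at 7.89 to 10.7 RPKM in free-wheel and 9.51 to 11.9 in locked-wheel libraries (log2 -0.17 ± 0.09, adjusted p = 0.26). Tgfbr1 was at 14 to 18.1 RPKM in free-wheel and 15.7 to 21.8 in locked-wheel libraries (log2 -0.21 ± 0.09, adjusted p = 0.184). The log2 differences of Tgfbr2, Smad2, Smad3 and Smad4 lay between -0.13 and 0.15 and did not pass. Limma called 4.09% of all genes higher and 3.3% lower in this comparison (7.39% in either direction), and 1 member in each direction. The endothelial markers summed to 114.7 to 161.3 RPKM in free-wheel and 72.3 to 125.7 in locked-wheel libraries, and their part in the Ctgf difference was not tested.

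**Figure D2:**
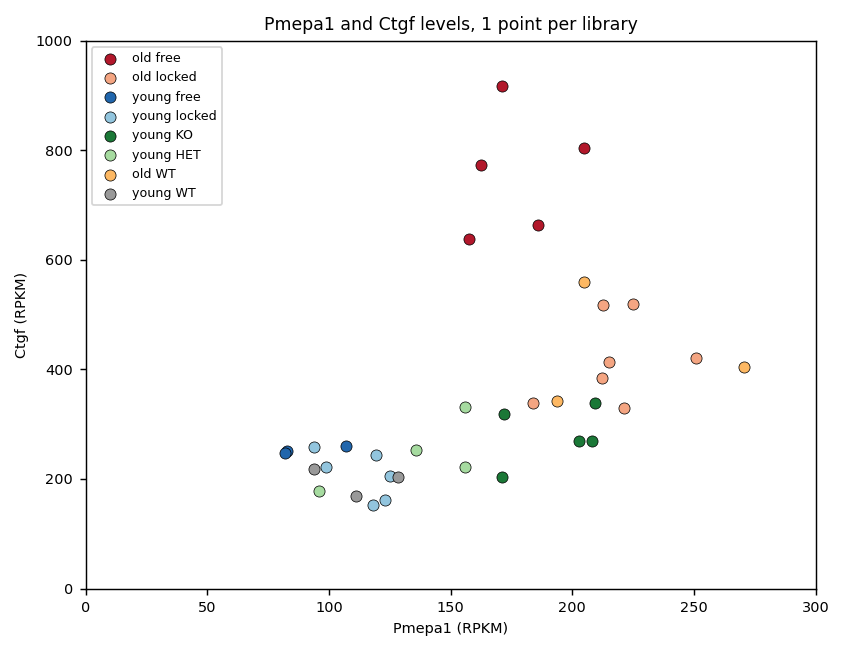
Pmepa1 (horizontal axis, RPKM) against Ctgf (vertical axis, RPKM), with 1 point per library coloured by group. The 5 old free-wheel libraries stand at 638.6 RPKM of Ctgf or more, at Pmepa1 levels of 157.6 to 205, and KO libraries lie at Pmepa1 levels of 171.2 to 209.5 with Ctgf at 204.4 to 338.1.

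Among the members, Smad7 alone was called in young mice with a free wheel, and it fell. Smad7 (mm10 chromosome 18, 75367529 to 75395935, plus strand) was at 5.45, 7.11 and 7.36 RPKM in young free-wheel libraries 1 to 3, against 7.97 to 9.9 in the 6 young locked-wheel libraries (median 9.25). The groups did not overlap, and the gene was 1.39-fold lower (log2 -0.47 ± 0.11, SE, adjusted p = 0.0378). The call was lost in 5 of 9 omissions of a library (young locked 2, 4 and 5 and young free 1 and 2, adjusted p up to 0.258) in a fit of these groups alone (adjusted p = 0.114) and with plain eBayes (adjusted p = 0.0532). Pmepa1 was at 82.9, 82 and 107.1 RPKM in free-wheel libraries, against 93.8 to 125.2 in locked-wheel libraries, and its log2 difference of -0.32 ± 0.11 did not pass (adjusted p = 0.149). Ctgf was at 251.8, 247.7 and 259.7 RPKM in free-wheel libraries, against 152.6 to 257.5 in locked-wheel libraries, a log2 difference of 0.31 ± 0.16 that did not pass (adjusted p = 0.355). All 3 free-wheel libraries lay above the locked-wheel mean, and 1 of them above the locked-wheel range. Tgfb1 was at 3.04, 2.15 and 2.96 RPKM in free-wheel libraries and 1.95 to 4.75 in locked-wheel libraries. The log2 differences of Tgfb1, the receptors and Smad2, Smad3 and Smad4 lay between -0.23 and -0.05 and did not pass. Limma called 0.406% of all genes higher and 0.714% lower, which is 1.12% in either direction.

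The difference between the wheel effects in old and young mice was tested directly and passed in limma for none of the 9 genes, while 0.00882% of all genes were called. Ctgf and Smad7, 2 of the 9, had an unadjusted limma p under 0.05. They ranked 338 and 945 of the 11337 genes by p, so many other genes passed that level too. For Ctgf the log2 effect of the wheel in old mice minus that in young mice was 0.55 ± 0.21 (95% interval 0.12 to 0.99, adjusted p = 0.52). For Smad7 it was 0.30 ± 0.14 (adjusted p = 0.585). For Pmepa1 it was 0.02 ± 0.14, with a 95% interval from -0.28 to 0.32.

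The Ccnd1 comparisons asked how young MuSCs differ when both or 1 of the copies of Ccnd1 are floxed. Ccnd1 encodes cyclin D1, which drives cells through G1. The ligand Tgfb1 rose in both KO and HET libraries, and Pmepa1 rose in KO libraries. Tgfb1 was at 6.01, 4.46, 7.57, 4.67 and 5.83 RPKM in KO libraries 1 to 5 and at 5.54, 7.84, 4.41 and 6.79 in HET libraries 1 to 4, against 2.99, 3.13 and 3.44 in young WT libraries. Every KO and HET library lay above every one of the 3 WT libraries. Young locked-wheel libraries of the other cohort ran from 1.95 to 4.75 RPKM, a range that overlaps those of KO and HET. KO was 1.76-fold above WT (log2 0.82 ± 0.19, SE, adjusted p = 0.0237) and HET 1.89-fold (log2 0.92 ± 0.20, adjusted p = 0.0209). Omitting a library lost the KO call in 5 of 8 cases (young WT 1, 2 and 3 and KO 3 and 5, adjusted p up to 0.088). It lost the HET call in 3 of 7 cases (young WT 2 and HET 2 and 4, adjusted p up to 0.092).

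Pmepa1 was at 202.9, 171.2, 172.1, 208.1 and 209.5 RPKM in KO libraries, against 111, 128.3 and 93.8 in young WT libraries. KO and WT did not overlap, with a 1.74-fold difference (log2 0.80 ± 0.17, adjusted p = 0.0153), which of the 8 omissions only that of young WT 3 ended (adjusted p = 0.0711). HET libraries were at 135.8, 155.9, 95.9 and 155.8 RPKM, and HET 3 fell within the WT range. The log2 difference of HET from WT was 0.28 ± 0.17 and did not pass (adjusted p = 0.361). KO lay above HET in every library, by 0.53 ± 0.15 on the log2 scale, and just missed the threshold (adjusted p = 0.0547). It passed without young HET 2 (adjusted p = 0.0451) and when only genes averaging at least 5 RPKM were tested (adjusted p = 0.0429). The order of Pmepa1 means was therefore KO, HET, WT at 192.8 ± 19.4, 135.8 ± 28.3 and 111 ± 17.2 RPKM (SD, n = 5, 4 and 3), where the neighbours HET and WT overlapped.

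Ctgf was at 268.5, 204.4, 318.9, 268.7 and 338.1 RPKM in KO and 253, 331.8, 177.7 and 222.1 in HET libraries, against 168.7, 202.9 and 217.9 in young WT libraries. The log2 differences of 0.50 ± 0.21 for KO (adjusted p = 0.151) and 0.30 ± 0.22 for HET did not pass. Smad3 was at 13.4 to 22.6 RPKM in KO and 16.9 to 24.8 in HET libraries, against 13.1 to 17.2 in young WT libraries, and passed in neither comparison. Smad7 was at 9.14 to 14 RPKM in KO and 9.59 to 13.1 in HET libraries, against 6.69 to 10.7 in young WT libraries, and did not pass either. The log2 differences of Tgfbr1, Tgfbr2, Smad2 and Smad4 from WT lay between -0.19 and -0.02 for KO and between -0.22 and 0.12 for HET, and none passed. HET library 2 was the highest HET library for Tgfb1, Tgfbr2, Smad3, Smad7, Pmepa1 and Ctgf, but not for Tgfbr1, Smad2 or Smad4. How often that library was the highest over all genes was not determined.

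Limma called 5.05% of all genes higher and 1.94% lower in KO than in WT (6.99% in either direction), and called 2 of the 9 members. It called 1.98% higher and 3.4% lower in HET than in WT (5.39% in either direction), and called 1 member. For KO against HET limma called 5.15% of all genes higher and 0.891% lower (6.04% in either direction) and no member. Pmepa1 and Tgfbr2, 2 of the 9, had an unadjusted limma p under 0.05. They ranked 765 and 2481 of the 11337 genes by p, so many other genes passed that level too. With median-of-ratios scaling the split of calls over all genes became 438 higher and 267 lower for KO against WT (573 and 220 as deposited). It became 272 and 187 for HET against WT (225 and 386 as deposited) and 213 and 130 for KO against HET (584 and 101 as deposited), while no member gained or lost a call. The endothelial markers summed to 91.9 to 117.3 RPKM in KO and 96.4 to 110.3 in HET libraries, against 62.3 to 87 in young WT libraries, and did not overlap with WT. Their part in the Tgfb1 difference was not tested. The 5 tenocyte markers summed to 102.6 to 186.1 RPKM in KO libraries, against 67.1 to 83.2 in HET and 26.5 to 135.4 in WT libraries, and their part in the Pmepa1 difference was not tested.

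**Figure D3:**
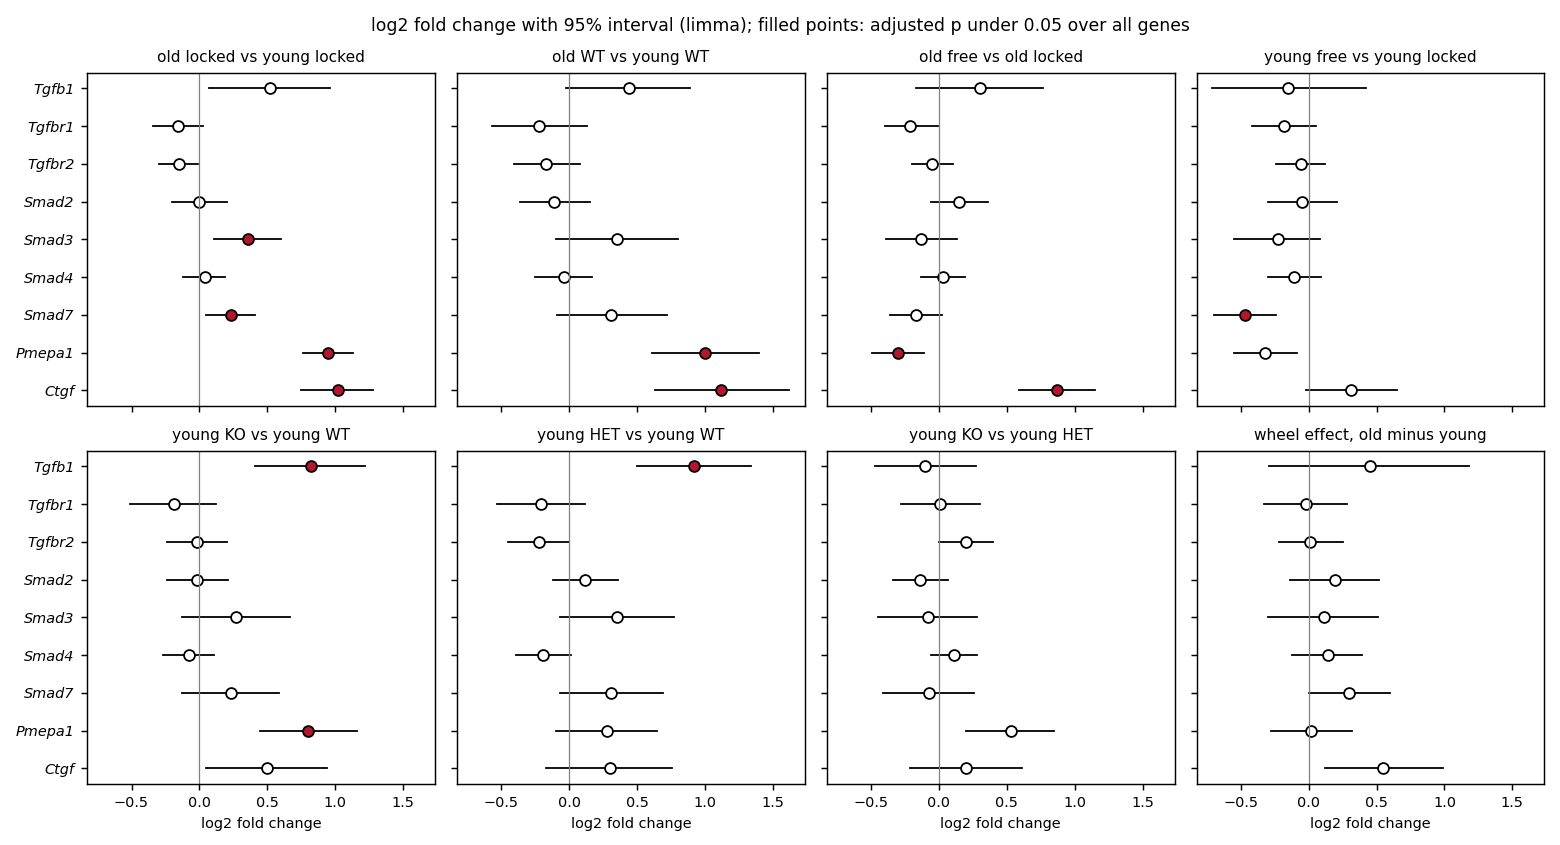
log2 fold change (horizontal axes) of each gene with its 95% interval for the 8 comparisons, where filled points passed an adjusted p under 0.05 over all genes. Pmepa1 and Ctgf stand at about 1 in both age panels, which are not independent, since the controls of the cohorts had been drawn together. Tgfb1 stands at 0.82 and 0.92 in the KO and HET panels. Ctgf lies at 0.87 and Pmepa1 at -0.30 for the free wheel in old mice.

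The rest of the pathway was taken from lists of 118 further genes, of which 103 were in the table, and a gene in more than 1 list counts in each. With age in the wheel cohort 21 of these 103 were called higher and 25 lower, where 20.5% and 17.8% of all genes were, with a median log2 difference of 0.02 over the lists and 0.01 over all genes. The target genes went both ways, with 10 of 37 called higher and 10 lower. Their list does not separate genes that the signal switches on from genes that it switches off. Collagen genes led those that fell: Col3a1 averaged 163.8 ± 30 RPKM in old and 342.9 ± 35.7 in young libraries (SD, n = 7 and 6, log2 -1.08 ± 0.10, adjusted p = 1.05e-07). Col1a1 differed by -2.62 ± 0.24 and Acta2, smooth muscle actin, by -0.75 ± 0.12. The Notch ligand Jag1 (0.49 ± 0.10), the growth factor Pdgfa (0.53 ± 0.11) and the matricellular Postn (0.91 ± 0.23) rose. Col1a1 is also a fibroblast marker and Acta2 a smooth muscle marker. The 8 fibroblast markers summed to 385.2 to 459.7 RPKM in old and 320.8 to 615.7 in young libraries, and the 6 pericyte and smooth muscle markers to 155.6 to 212.8 in old and 228.2 to 344.3 in young libraries. The part of such cells in these differences was not tested.

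Genes that tether or free the ligand went both ways with age, with 3 of 14 called higher and 5 lower. Lrrc32, a membrane anchor of latent TGF-beta (0.92 ± 0.18), and the integrin Itgav (0.58 ± 0.09) rose. The related anchor Nrros (-1.29 ± 0.32) and the metalloproteinases Mmp14 (-0.66 ± 0.09) and Mmp2 (-0.78 ± 0.14) fell. Nrros stood at a low level, with means of 0.957 RPKM in old and 2.15 in young libraries. Of 6 receptors and coreceptors, the type I receptor Acvrl1 rose by 0.71 ± 0.12. The coreceptor endoglin (Eng, -0.69 ± 0.12) and the activin receptor Acvr1b (-0.61 ± 0.16) fell. The endothelial markers summed to 72.3 to 125.7 RPKM in old and 62.1 to 96.8 in young libraries. Their part in the receptor differences was not tested. Activin subunit genes Inhba (0.96 ± 0.18) and Inhbb (0.74 ± 0.19) rose, and Gdf15 fell (-0.88 ± 0.21), of 6 ligands. The isoforms Tgfb2 and Tgfb3 are given as relatives of Tgfb1, chosen after their values were seen. Tgfb2 (13.8 ± 0.761 RPKM in old and 13.1 ± 2.12 in young libraries) and Tgfb3 (29.8 ± 3.61 and 30 ± 4.71 RPKM) did not pass. In RPKM, a level per length, both stood above Tgfb1. Of 7 ligand inhibitors, follistatin (Fst, 1.29 ± 0.17) and decorin (Dcn, 0.98 ± 0.20) rose and Fstl1 fell (-0.65 ± 0.11). Of 12 Smad partners 1 was called, the transcription factor Sp1 (-0.31 ± 0.08). Of 14 regulators of the receptor or Smads, 2 were called higher and 1 lower, led by Nedd4l (0.30 ± 0.08) and Wwp2 (-0.44 ± 0.13), which encode ubiquitin ligases. In the arm that bypasses the Smads, 2 of 8 were higher and 3 lower, led by Map3k7 (0.30 ± 0.09) and Traf4 (-0.69 ± 0.13). Of 2 BMP-side Smads, Smad5 fell by 0.22 ± 0.07. In old WT against young WT mice limma called 2 of 103 higher and 15 lower, where 8.03% and 7.76% of all genes were called. Those higher were Fst (log2 1.4, adjusted p = 0.0119) and Dcn (log2 1.01, adjusted p = 0.0207). The Fst call was lost without young WT 3, and the Dcn call in 4 of 6 omissions. Those lower included Col1a1 (-2.43 ± 0.45), Snai2 (-0.75 ± 0.14) and Mmp14 (-0.71 ± 0.12).

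With a free wheel in old mice 7 of the 103 were called higher and 7 lower, where 4.09% and 3.3% of all genes were. Of 37 target genes 4 rose. Col3a1 averaged 300.2 ± 35.4 RPKM in free-wheel and 163.8 ± 30 in locked-wheel libraries (SD, n = 5 and 7, log2 0.88 ± 0.10, adjusted p = 6.32e-05). Pdgfa (0.57 ± 0.12) and Acta2 (0.55 ± 0.12) also rose. The fourth, Cyr61, another YAP and TEAD target of the same protein family as Ctgf, is given after its values were seen. Cyr61 averaged 693 ± 170.6 RPKM in free-wheel and 476.8 ± 74.9 in locked-wheel libraries (log2 0.52 ± 0.14, adjusted p = 0.0272), a call lost without old locked 4, old free 2 or old free 3. Vegfa (-0.42 ± 0.07), Id3 (-0.35 ± 0.10) and Sphk1 (-0.37 ± 0.11) fell, the calls of Id3 and Sphk1 being lost in 8 and 6 of 12 omissions. Among Smad partners 3 of 12 fell. These were the adaptor Dab2 (-0.77 ± 0.14), the corepressor Tgif1 (-0.33 ± 0.07) and the Smad anchor Zfyve9 (-0.39 ± 0.12), whose call was lost in every omission except that of old free 5. Bgn, a matrix proteoglycan that binds TGF-beta, rose by 1.13 ± 0.13, the microfibril gene Fbn1 by 0.54 ± 0.09 and Tab1 by 0.93 ± 0.25, and Itgav fell by 0.42 ± 0.09. The Tab1 call was lost without old locked 3, old free 1 or old free 5. The pericyte and smooth muscle markers, Acta2 among them, summed to 193.9 to 255.3 RPKM in free-wheel and 155.6 to 212.8 in locked-wheel libraries, and their part was not tested. In young mice the wheel called Bgn higher (0.88 ± 0.15) and Vegfa lower (-0.57 ± 0.09) and no other of the 103. The Bgn call was lost without young free 1 or 2, and the Vegfa call without young free 2.

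For KO against WT 4 of the 103 were called higher and 2 lower, where 5.05% and 1.94% of all genes were, and for HET against WT 2 higher and 2 lower, where 1.98% and 3.4% were. These shares are near or below those of all genes, so the genes that follow are described singly. Angptl4, a lipase inhibitor induced by TGF-beta, averaged 130.1 ± 40.4 RPKM in KO (n = 5) and 160.3 ± 26.6 in HET libraries (n = 4), against 57.5 ± 8.3 in young WT libraries (n = 3, SD). It rose by 1.13 ± 0.25 in KO (adjusted p = 0.0208) and by 1.47 ± 0.26 in HET (adjusted p = 0.0106), and the KO call was lost without young WT 2 or 3. Postn rose by 1.64 ± 0.42 in KO and 1.90 ± 0.44 in HET, and Cdkn1c, which encodes the cyclin-dependent kinase inhibitor p57, fell by 1.11 ± 0.25 in KO and by 1.06 ± 0.26 in HET. Each of these Postn and Cdkn1c calls was lost without young WT 2 or young WT 3, among 2 to 6 omissions that lost it. In KO Acvrl1 (0.92 ± 0.22) and the ubiquitin ligase Smurf1 (0.34 ± 0.09) rose and Traf4 fell (-0.53 ± 0.15), and in HET Mmp14 fell (-0.42 ± 0.11), each lost without young WT 2 or young WT 3, among 4 to 7 omissions. KO against HET called Traf4 alone (-0.58 ± 0.14), lost in 6 of 9 omissions. Young WT libraries are the common control of the KO and HET comparisons. The endothelial markers summed to 91.9 to 117.3 RPKM in KO libraries, against 62.3 to 87 in young WT libraries. Their part in the Acvrl1 difference was not tested.

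**Figure D4:**
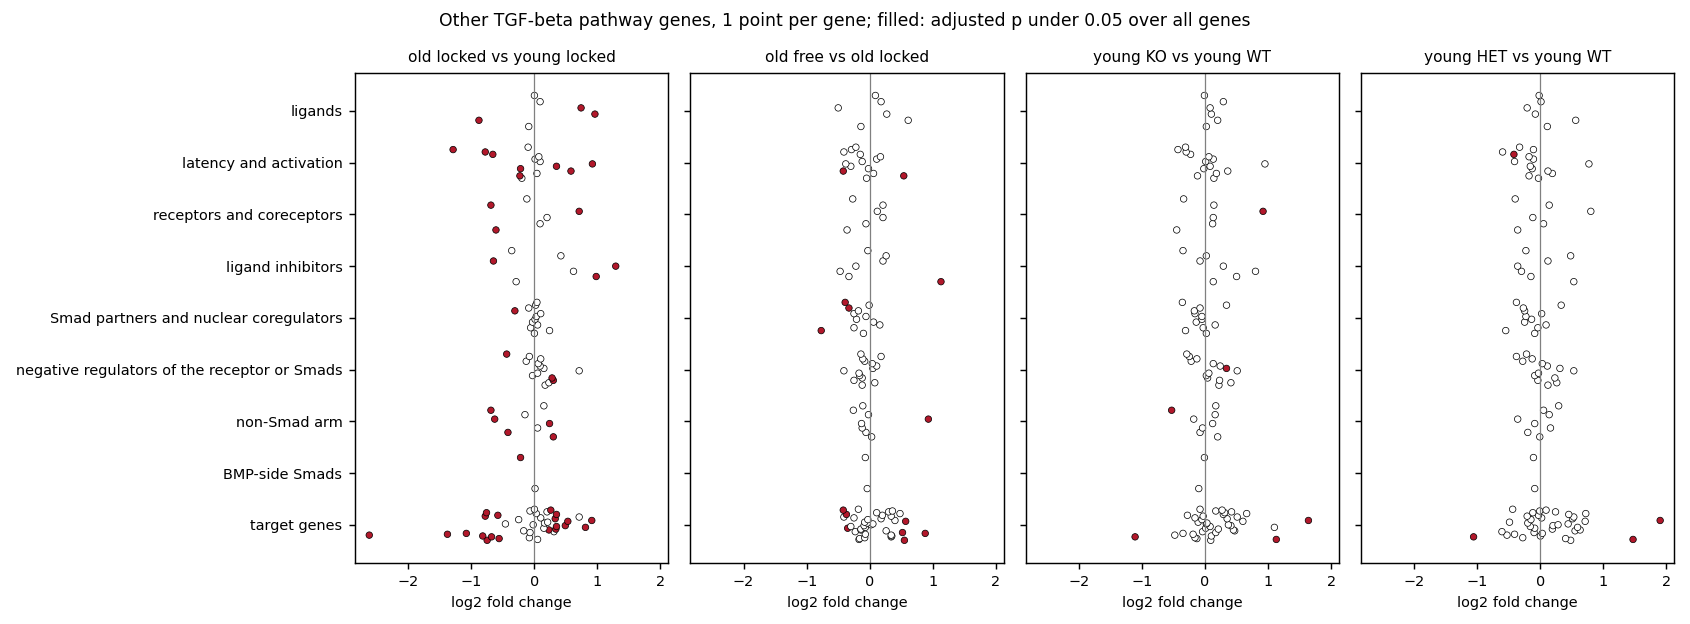
log2 fold change (horizontal axes) of the other TGF-beta pathway genes, 1 point per gene, by role, for age in the wheel cohort, the free wheel in old mice, KO and HET, where filled points passed an adjusted p under 0.05 over all genes. With age filled points lie on both sides of 0 in most roles, and the KO and HET panels hold few of them.

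By the pattern over all 36 libraries, the genes most like a member were named from Pearson's r of log2 values, a description that rests on libraries, groups and an adjustment shared by all genes. Pmepa1 had the closest neighbours, with Llph, Yrdc and Timm9 at r of 0.94, 0.93 and 0.93, and 300 genes at 0.8 or more. Ctgf was nearest to Dnajc11 (0.91), Rnf20 (0.90) and Sf3a3 (0.90), with 131 genes at 0.8 or more. Smad3 stood nearest to Hivep1 (0.86), Tgfb1 to Trim16 (0.84), Smad4 to Timp2 (0.81), Smad7 to Cpeb2 (0.81), Tgfbr2 to Gmeb2 (0.75) and Smad2 to Mcts1 (0.71). The next nearest were Creb3l1 and Parp14 for Smad3, Tbc1d10b and Gm20604 for Tgfb1, and Ryk and U2surp for Smad4. They were Pou3f1 and Zfp1 for Smad7, Eif4g3 and Mtfr2 for Tgfbr2, and Nans and Hspb11 for Smad2. No member was among another member's 3 nearest genes. In the authors' deposited table the coefficient of correlation with Ccnd1 was positive for Ctgf (0.48) and negative for Smad7 (-0.54), Tgfb1 (-0.42), Pmepa1 (-0.41), Smad3 (-0.36), Tgfbr1 (-0.33) and Tgfbr2 (-0.16). It was 0.13 for Smad4 and 0.03 for Smad2 in the authors' deposited table, and no source used here names the libraries behind these coefficients.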

How the data were processed

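PolyA RNA of sorted MuSCs was made into oligo(dT)-primed cDNA libraries and sequenced as 101 bp paired reads, per the labels' protocols. Per the submitters' processing notes, the tools were Trim Galore, STAR and featureCounts of Subread and the build was mm10, while their versions and strand setting are not given. The authors deposited RPKM values, unit read from the values (value times exon kb summed to 958292 to 1204773 per library), without zeros, and a correlation coefficient with Ccnd1, a score by the authors. The centred log2 matrix had rank 29 of a possible 35. RPKM keep no counts, so the depth of each library is unknown and no counting interval is given. The RPKM sum per library was 273800 to 351000.

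Limma 3.58.1 (R 4.3.3, statmod 1.5.0) fitted log2 RPKM without pseudocount, with 1 mean per group within each cohort, eBayes with trend and robust settings, and Benjamini-Hochberg adjustment over 11337 genes. Genes were called where the adjusted p was under 0.05. The fit was tested on simulated data. Alternatives were pseudocounts of 0.1 and 1, a minimum mean of 5 RPKM, median-of-ratios (RLE) scaling, only the groups compared, plain eBayes, a replicate block and omission of each library. Each replicate is an individual mouse per the labels. The members and lists were chosen with earlier results of these data known. All members are named, up to 3 called genes per list and direction by lowest p, and the 3 genes most like each member, of which those for Tgfbr1 are not reported here. Positions are from GENCODE M21. Python 3.11.15 with matplotlib 3.10.9 drew the figures.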

Additional observations from a re-analysis of the deposited data

Results flagged for a closer look

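Of 45 sets of 1 gene in 1 group of 4 to 7 libraries, 2 held a library far from the others by Dixon's test, where chance flags about 1 in 20. Tgfbr1 was at 14 RPKM in old free 3, below the other old free-wheel libraries at 17.1 to 18.1. Tgfbr2 was at 15.7 RPKM in young HET 2, above the other HET libraries at 12.8 to 13.2. The young HET 2 library was also the highest of its group for Tgfb1, Smad3, Smad7, Pmepa1 and Ctgf. How often it was the highest over all genes was not determined.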

How the results depend on the processing

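Over 72 values of the 9 genes, 476 of 491 results under other settings kept their direction and side of the threshold, 9 lost a call, 2 gained one and 4 changed sign. Of 765 omissions of a library, 685 kept both, 34 lost a call, 6 gained one and 40 changed sign. Each sign change was of a value that had not passed. With median-of-ratios scaling Tgfbr1 in KO against HET came to -0.07. When a library was left out, Smad2 with age in the wheel cohort ranged from -0.05 to 0.07, and Tgfb1 with the wheel in young mice from -0.27 to 0.01. In the old minus young wheel effect Tgfbr1 ranged from -0.08 to 0.08, Tgfbr2 from -0.03 to 0.05 and Pmepa1 from -0.05 to 0.15. In KO against WT Tgfbr2 ranged from -0.13 to 0.1 and Smad2 from -0.1 to 0.04. In KO against HET Tgfb1 ranged from -0.25 to 0.03, Tgfbr1 from -0.09 to 0.11, Smad3 from -0.16 to 0.04 and Smad7 from -0.18 to 0.01. Smad4 in old against young WT ranged from -0.1 to 0. For the other named pathway genes 43 of 610 results under other settings and 161 of 971 omissions lost a call and 0 changed sign.

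The count of genes called over the whole table moved as follows. With a mean of at least 5 RPKM it was 2850 for age in the wheel cohort (4342 without the filter), 250 for HET against WT (611) and 0 for the difference of wheel effects (1), and fewer genes were tested. With a pseudocount of 1 that difference gave 2. With only the groups compared, and so fewer samples, it was 22 for the wheel in young mice (127), 379 for KO against WT (793), 300 for HET against WT and 327 for KO against HET (685). With plain eBayes the wheel in young mice gave 84, and with median-of-ratios scaling KO against HET gave 343. Their cause was not tested. Omitting a library gave 3887 to 4356 for age in the wheel cohort, 873 to 1366 for old against young WT (1790), 351 to 923 for the wheel in old mice (838), 5 to 205 for the wheel in young mice, 1 to 5 for the difference of wheel effects, 98 to 938 for KO against WT, 68 to 621 for HET against WT and 265 to 743 for KO against HET. The lowest counts came without young WT 3 (98), young WT 2 (68), young free 2 (5), old free 3 (351), HET 3 (265) and old WT 3 (873).

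Each label names an individual mouse, and the main fit did not pair libraries by replicate number. Deviations of same-numbered libraries correlated at -0.26 to 0.3. These were values from which 6 directions had been taken out, so the correlations cannot decide whether same-numbered libraries were handled together. With a replicate block the count was 14 for the wheel in young mice, 1 for KO against WT, 179 for HET against WT and 262 for KO against HET. With that replicate block the difference of wheel effects was -0.01 for Tgfbr2 and -0.03 for Pmepa1, and Tgfbr2 in KO against WT was 0.01. Under the block the adjusted p was 0.0637 for Smad7 with age, 0.104 for Pmepa1 with the wheel in old mice, 0.0753 for Smad7 with the wheel in young mice, 0.111 for Tgfb1 and 0.061 for Pmepa1 in KO, and 0.069 for Tgfb1 in HET, which ends these calls. Tgfb1 with age passed (adjusted p = 0.0436). The unknown depth limits what can be said of genes at low RPKM.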
